A study of Rattus norvegicus with 3 samples.

Results

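The enzymes described here burn pyruvate, ketone bodies and amino acid carbon in the citrate cycle, and the tissue is the medullary thick ascending limb (mTAL) of the rat kidney. The members were chosen by name: 36 genes of the pyruvate dehydrogenase complex, the citrate cycle, the enzymes that feed or drain it, and ketone body metabolism. Of these, 34 had at least 1 probe set whose annotation named no other gene, out of 14217 genes measured in that way. Dlat and Fh had none, so no signal is given for them. Where a gene had several such probe sets, the brightest by mean log2 signal stood for it.

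All samples belonged to 1 group of 3 Affymetrix arrays, hybridised with RNA from the mTAL of male Sprague-Dawley rats 7 to 8 weeks old. All rats had received furosemide (1 mg), the diuretic that blocks salt uptake by this segment, together with heparin (250 u) 30 minutes before decapitation, and the tubules were freed by collagenase digestion for 60 minutes and separated on 33.3% Percoll. No untreated rats and no other tissue were profiled, so no level given here can be called particular to the mTAL or to the treatment. The labels do not state that the samples are from different rats, so p-values and errors measure the spread between these 3 samples alone, which could be technical. In such a preparation fewer cells of a type and less RNA per cell cannot be told apart.

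The mTAL pumps sodium chloride out of the tubule fluid against a steep gradient, in a part of the kidney where oxygen is scarce, and its cells are packed with mitochondria. Pyruvate enters the citrate cycle as acetyl-CoA through the pyruvate dehydrogenase complex, which kinases switch off and phosphatases switch on. The cycle strips electrons from its acids for the respiratory chain. Ketone bodies, made in the liver, are turned back into acetyl-CoA by other enzymes and enter at the same point.

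A gene was called detected when its log2 signal lay above a cutoff set on each array by itself, by limma's one-sided test with Benjamini-Hochberg adjustment over all 14217 genes at an adjusted p under 0.05. The cutoff was the 95th percentile of 38 genes known from other tissues, such as brain, muscle, pancreas and skin. It lay at signals of 1402, 1153 and 1293 on replicates 1, 2 and 3. On each array 2 of the 38 genes lay above it, Cela1 (1764, 1496 and 2140) and Myh1 (43678, 45438 and 39684). The cause of the high Myh1 signal was not tested. Signals are on a linear scale and are given as mean ± SD (n = 3 arrays). A distance is the log2 signal minus the cutoff. Its SE is moderated by limma and also holds the movement of the cutoff between arrays, so it is not the spread of the gene's signal alone. For Idh2 the SD of the log2 signal was 0.018 and the SE of the distance 0.12. Hybridisation strength differs between probe sets, so distances of different genes do not give the relative abundance of their transcripts. Of the 14 thick ascending limb markers, 13 were detected, and all 14 lay above the cutoff on every array. Among 17 proximal tubule markers, 1 was detected, but their summed signal was 7130, 25410 and 78084 on replicates 1, 2 and 3, with 1, 5 and 10 of the 17 above the cutoff. Of other cell type markers, 4 of 6 for the thin limb, 3 of 7 for endothelium and 1 of 8 for principal cells were detected. By limma 0 of 5 intercalated cell, 6 leukocyte, 7 fibroblast and mural cell and 3 red blood cell markers were detected, and 0 had an unadjusted p under 0.05. Some of them still lay above the cutoff on replicates 2 and 3, namely Hbb (1196, 1427 and 5881 on replicates 1, 2 and 3), Lyz2 (785, 2264 and 1934) and Atp6v1g3 (415, 1391 and 1473). Laptm5 did so on replicate 2 alone. The lack of a call thus does not show that these cells were absent.

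Of the 34 members, 28 were detected, or 82.4%, against 28.0% of all genes. The median distance of the members was 2.91 log2 units, against -0.95 for all genes. The 6 members not detected were Glul, Pdp2, Pc, Pdp1, Pdk1 and Me1. The 4 measured genes of the pyruvate dehydrogenase complex and the 11 measured enzymes of the cycle in mitochondria were all detected, and the members not detected were a glutamine-making enzyme, 3 regulators of pyruvate dehydrogenase, and 2 enzymes that join pyruvate to oxaloacetate or malate. The genes nearest to the cutoff on the detected side were Pdk3 at 0.73 and Pdhx at 0.76. The number depended on where the cutoff was put: 33 of 34 members (50.4% of all genes) were detected with the 90th percentile and 3 of 34 (0.521% of all genes) with the 99th, which lies between Cela1 and Myh1, the 2 brightest of the other-tissue genes.

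**Figure D1:**
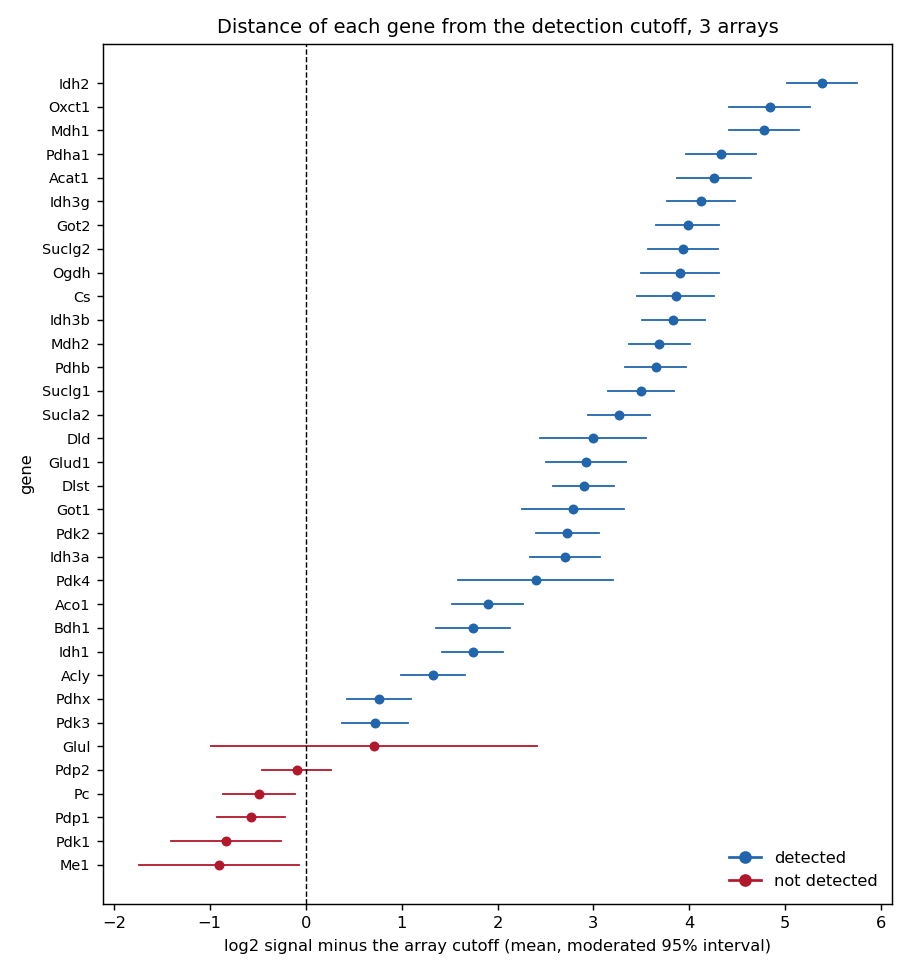
Distance of each of the 34 genes from the detection cutoff, as log2 signal minus the array's cutoff on the horizontal axis, with the moderated 95% interval over 3 arrays. Blue genes were detected and red genes were not; the interval of Glul, from -0.98 to 2.41, is the widest.

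The sequence around the transcription start is shown for Idh2, the gene with the largest distance, for the kinases Pdk2 and Pdk4, whose brightest probe sets differed in how far they varied between arrays, and for Glul, the most variable member. Each line runs from 250 bases before to 50 bases after an annotated start, 5′ to 3′ on the gene's strand, from RefSeq on build GRCr8. Capitals mark the GC box, the letters GGGCGG or their reverse complement CCGCCC, a motif that Sp transcription factors are known to bind. Idh2 lies at chr1:143467199-143467498 on the minus strand, Pdk2 at chr10:80483863-80484162 on the minus strand, and Pdk4 at chr4:34568280-34568579 on the minus strand. Glul has 2 annotated windows on the plus strand, at chr13:68519250-68519549 and chr13:68575816-68576115.
Idh2: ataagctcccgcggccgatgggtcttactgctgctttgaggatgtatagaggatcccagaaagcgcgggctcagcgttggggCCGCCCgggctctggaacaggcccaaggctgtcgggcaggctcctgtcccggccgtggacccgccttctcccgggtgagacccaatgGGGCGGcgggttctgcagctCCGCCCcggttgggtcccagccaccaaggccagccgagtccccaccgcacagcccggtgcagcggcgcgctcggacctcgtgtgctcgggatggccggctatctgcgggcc
Pdk2: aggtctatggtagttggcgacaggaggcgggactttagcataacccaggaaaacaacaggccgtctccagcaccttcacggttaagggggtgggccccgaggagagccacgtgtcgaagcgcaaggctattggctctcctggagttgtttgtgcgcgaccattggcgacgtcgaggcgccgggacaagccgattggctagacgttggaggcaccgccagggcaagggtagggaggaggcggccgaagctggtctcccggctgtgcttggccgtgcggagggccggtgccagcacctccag
Pdk4: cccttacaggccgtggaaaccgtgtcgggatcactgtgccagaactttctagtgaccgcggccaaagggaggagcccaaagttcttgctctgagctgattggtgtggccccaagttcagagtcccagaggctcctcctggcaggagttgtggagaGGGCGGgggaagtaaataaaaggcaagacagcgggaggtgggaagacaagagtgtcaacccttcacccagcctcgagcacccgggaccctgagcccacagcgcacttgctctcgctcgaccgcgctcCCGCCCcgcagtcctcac
Glul, window 1: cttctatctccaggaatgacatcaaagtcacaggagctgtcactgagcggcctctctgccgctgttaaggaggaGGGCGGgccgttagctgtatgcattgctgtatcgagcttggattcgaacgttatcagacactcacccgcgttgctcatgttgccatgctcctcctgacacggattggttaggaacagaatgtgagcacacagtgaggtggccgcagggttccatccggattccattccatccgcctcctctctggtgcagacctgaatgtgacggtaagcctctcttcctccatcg
Glul, window 2: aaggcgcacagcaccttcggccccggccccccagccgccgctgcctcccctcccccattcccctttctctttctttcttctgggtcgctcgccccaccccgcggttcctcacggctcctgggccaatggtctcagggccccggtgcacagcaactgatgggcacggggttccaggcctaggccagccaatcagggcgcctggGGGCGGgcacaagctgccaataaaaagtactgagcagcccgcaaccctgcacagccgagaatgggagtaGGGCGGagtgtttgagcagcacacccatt

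The Idh2 window held 3 GC boxes, that of Pdk4 2 and the Glul windows 1 and 2, and these letters were not in the Pdk2 window. A window was found for 32 of the 36 listed genes, 33 windows in all. Pdp1, Pdp2, Pc and Idh3a had none. The 33 windows include those of Dlat and Fh, each with 1 GC box, although these genes were not measured. A GC box stood in 25 of the 33, or 75.8%, against 55.7% of the 13242 windows of genes measured on the array and 33.1% of all 33469 windows. The median number of CpG dinucleotides was 22 in the members' windows, 18 in those of measured genes and 7 in all windows. The element of the oestrogen-related receptors, TCAAGGTCA or its complement TGACCTTGA, was in 0 of the 33 windows and in 0.272% of those of measured genes. The cyclic AMP response element TGACGTCA, which reads the same on both strands, was in the windows of Mdh2 and Ogdh, 6.06% of the members' windows against 2.70% of those of measured genes. These are matches of letters in short windows; no binding was measured.

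The pyruvate dehydrogenase complex, which makes acetyl-CoA from pyruvate, was detected in all 4 of its measured genes. Pdha1, the catalytic alpha subunit that the kinases phosphorylate, had signals of 26038, 25885 and 25148 on replicates 1, 2 and 3, a distance of 4.33 ± 0.12 (SE, n = 3; limma adjusted p = 0.000527). Pdhb, its beta subunit partner, had signals of 17465, 14696 and 16045, a distance of 3.65 ± 0.11. The 3 values of each of these probe sets lay close together, and those of Pdha1 spanned a ratio of 1.04. A dimmer Pdha1 probe set, also detected, had 6703, 8035 and 4280, a ratio of 1.88 with its lowest value on replicate 3. Dld, the dihydrolipoamide dehydrogenase that this complex shares with the 2-oxoglutarate dehydrogenase complex, had 12990, 10621 and 7718. It was lowest on replicate 3, where it reached 0.59 of its signal on replicate 1. Pdhx, the protein that holds Dld in the complex, had 2559, 1869 and 2131 and lay just above the cutoff, at 0.76 (adjusted p = 0.00887); without replicate 3 it was not detected (adjusted p = 0.0702).

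Of the 4 kinases that switch the complex off, 3 were detected by their brightest probe sets. Pdk2 had signals of 8866, 8044 and 8511 on replicates 1, 2 and 3, a distance of 2.73 ± 0.11 (SE, n = 3; limma adjusted p = 0.000562). Pdk4, the isoenzyme known to be induced by fasting, had 4583, 7646 and 8718, a distance of 2.40 ± 0.28 (adjusted p = 0.00435). By these probe sets Pdk2 spanned a ratio of highest to lowest of 1.10, whereas Pdk4 was low on replicate 1 and spanned a ratio of 1.90. A dimmer Pdk2 probe set had 2172, 2163 and 1483, lowest on replicate 3 with a ratio of 1.46, and was not detected (adjusted p = 0.107). Pdk3 had 2250, 1798 and 2341, and its distance of 0.73 was called with all arrays (adjusted p = 0.0111) but not without replicate 1 (adjusted p = 0.0503) or without replicate 3 (adjusted p = 0.0933). Dimmer probe sets of Pdk3 (1178, 879 and 761) and Pdk4 (854, 1642 and 1009) were not detected either. With the mean of all probe sets of a gene, Pdk3 was not detected (limma adjusted p = 0.707). Pdk2 and Pdk4 still were (adjusted p = 0.00276 and 0.0449). Pdk1, a target of the hypoxia-inducible factor, had 582, 778 and 821, below the cutoff on all arrays.

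Neither phosphatase that switches the complex on was detected. Pdp1, the calcium-stimulated form, had signals of 946, 849 and 790 on replicates 1, 2 and 3, with a distance of -0.57 and a 95% interval from -0.93 to -0.22. Pdp2, a form that is known to respond to insulin in rat adipose tissue, had 1199, 1069 and 1340, and its interval from -0.45 to 0.26 included the cutoff. Pdp2 was above the cutoff on 1 array and Pdp1 on none. The call of Pdp2 depended on the cutoff: without Myh1 among the other-tissue genes, where 29 of 34 members and 40.2% of all genes were detected, the distance of Pdp2 was 0.62 (limma adjusted p = 0.0204), while that of Pdp1 was 0.14 and it was still not detected (adjusted p = 0.309). Absence of a call at this cutoff does not show absence of the transcript.

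**Figure D2:**
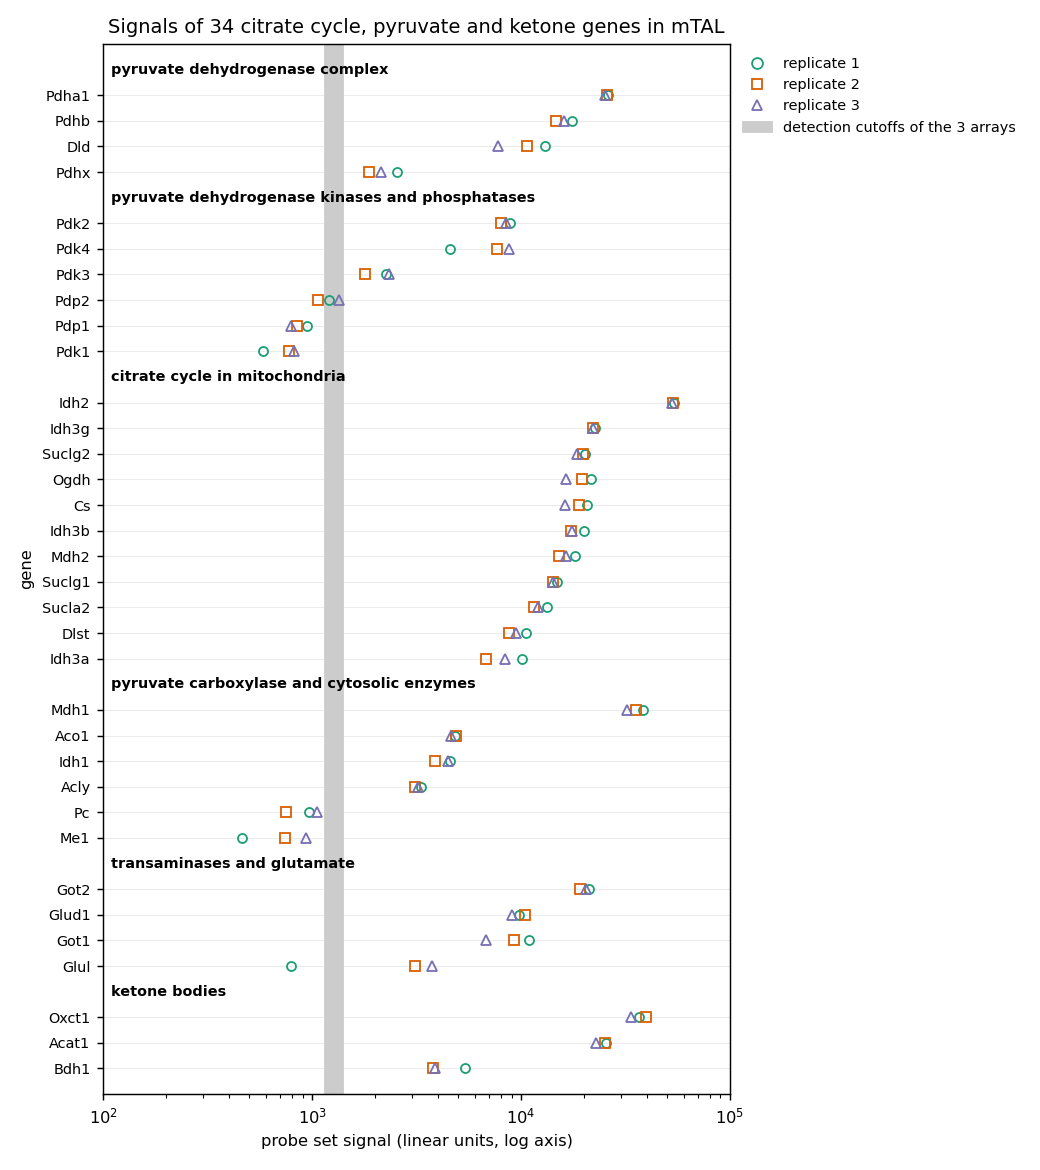
Signal of each of the 34 genes on the 3 arrays, grouped by role, on a log axis; the grey band spans the detection cutoffs of the 3 arrays, from 1153 to 1402. The 3 points of most genes nearly overlap, while Glul spans a ratio of 4.69, with replicate 1 below the band and replicates 2 and 3 above it.

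All 11 measured enzymes of the cycle in mitochondria were detected, with distances from 2.70 for Idh3a to 5.38 for Idh2. Citrate synthase, Cs, which joins acetyl-CoA to oxaloacetate, had signals of 20666, 19008 and 16220 on replicates 1, 2 and 3. Idh2, the NADP-dependent isocitrate dehydrogenase of mitochondria and a source of NADPH there, had 53800, 53612 and 52590. Idh2 had the largest distance of all members and the smallest coefficient of variation, 1.22%. The NAD-dependent isocitrate dehydrogenase, the form that feeds the respiratory chain, was detected in all of its subunits. Its catalytic subunit Idh3a had 10120, 6803 and 8393, Idh3b averaged 18262 ± 1558, and Idh3g, a regulatory subunit, averaged 22238 ± 283. Idh3a was highest on replicate 1 and lowest on replicate 2, with a ratio of 1.49, whereas Idh3g spanned a ratio of 1.02.

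The later steps of the cycle were detected as well. Ogdh and Dlst, the decarboxylase and the core subunit of the 2-oxoglutarate dehydrogenase complex, averaged 19231 ± 2601 and 9565 ± 934, with distances of 3.90 and 2.90. Ogdh, like Dld, was lowest on replicate 3, at 0.76 of its signal on replicate 1. Succinyl-CoA synthetase, the enzyme of the cycle that makes a nucleoside triphosphate directly, has a common alpha subunit, Suclg1 (14414 ± 371), and pairs it with a beta subunit that makes GTP, Suclg2, or ATP, Sucla2. Suclg2 had signals of 20258, 19748 and 18592 and Sucla2 13365, 11571 and 12017, so both beta subunits were detected, at distances of 3.93 and 3.27. Mdh2, the malate dehydrogenase of mitochondria, averaged 16525 ± 1451.

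Of the cytosolic enzymes and pyruvate carboxylase, 4 of 6 were detected. Mdh1, the cytosolic malate dehydrogenase of the malate-aspartate shuttle, had signals of 38258, 35345 and 32217 on replicates 1, 2 and 3, a distance of 4.78 ± 0.13 (SE, n = 3; limma adjusted p = 0.000527). Aco1, the cytosolic aconitase that doubles as an iron-regulatory RNA-binding protein, averaged 4768 ± 115, and Idh1, the cytosolic NADP-dependent isocitrate dehydrogenase, 4283 ± 378. Acly, which splits exported citrate into acetyl-CoA for lipid synthesis, averaged 3215 ± 118, a distance of 1.33. By contrast, Me1, the cytosolic malic enzyme that makes NADPH, had 460, 744 and 929 and was below the cutoff on every array. Pc, the pyruvate carboxylase that refills oxaloacetate, had 970, 748 and 1050, with an interval from -0.86 to -0.11.

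Both aspartate aminotransferases and Glud1 were detected, and glutamine synthetase was not. Got2, the aspartate aminotransferase of mitochondria, had signals of 21088, 19213 and 20339 on replicates 1, 2 and 3, and its cytosolic counterpart Got1 had 10934, 9227 and 6784. Got2 spanned a ratio of 1.10 and Got1 of 1.61, with its lowest value on replicate 3. Glud1, the glutamate dehydrogenase that yields 2-oxoglutarate and ammonia, averaged 9716 ± 686. Glul, glutamine synthetase, had 794, 3110 and 3728, below the cutoff on replicate 1 and above it on the others. Its distance of 0.71 had an interval from -0.98 to 2.41 and an adjusted p of 0.44 by limma, and without replicate 1 the distance was 1.48 (adjusted p = 0.0125), which is a call.

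All 3 genes of ketone body use were detected. Oxct1, the transferase that activates acetoacetate and is the committed step of ketone body use outside the liver, had signals of 36843, 39485 and 33688 on replicates 1, 2 and 3, a distance of 4.84 ± 0.14 (SE, n = 3; limma adjusted p = 0.000527). Bdh1, which turns 3-hydroxybutyrate into acetoacetate, had 5362, 3770 and 3879, a distance of 1.74 ± 0.13 (adjusted p = 0.0015). Bdh1 was highest on replicate 1, and replicates 2 and 3 reached 0.70 and 0.72 of that value. Acat1, the thiolase that splits acetoacetyl-CoA in the last step, had 25385, 25344 and 22766.

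The rest of the pathway was read from a list of 50 further genes, of which 42 were measured. Of these, 31 were detected, or 73.8%, with a median distance of 1.82, against 28.0% and -0.95 for all genes. The 5 detected genes with the highest signal were Ldhb, the lactate dehydrogenase subunit typical of tissues that oxidise lactate (48777 ± 1128), Mpc1, a subunit of the mitochondrial pyruvate carrier (37086 ± 3282), the transhydrogenase Nnt (29906 ± 898), the monocarboxylate transporter Slc16a7 (28309 ± 3707) and Sdhc, a subunit of succinate dehydrogenase (27438 ± 2608). The 5 with the lowest signal were the alanine aminotransferases Gpt (346 ± 82.8) and Gpt2 (147 ± 27.9), the GABA transaminase Abat (233 ± 46.2), Pdpr, a regulator of the pyruvate dehydrogenase phosphatase (163 ± 85.8), and the glutaminase Gls2 (159 ± 35.2). None of these last 5 was detected.

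Spread between the arrays was, by shares, near that of all genes whose mean lay above the mean cutoff. That set is not matched for signal: its median distance was 1.23, against 2.91 for the members. It includes the members above the mean cutoff and lacks Pdk1, Pdp1, Pdp2, Pc and Me1, which lay below. The coefficient of variation was under 10% for 20 of the 34 members, or 58.8%, against 53.4% of the 5187 genes whose mean lay above the mean cutoff. The signals spanned a ratio under 1.5 in 29 members, or 85.3%, against 4670 of those 5187 genes, or 90%. They spanned 1.5 or more in 5 members, Glul (4.69), Me1 (2.02), Pdk4 (1.90), Dld (1.68) and Got1 (1.61). These 5 genes fell into a set low on replicate 1 (Glul, Me1 and Pdk4) and a set low on replicate 3 (Dld and Got1). After centring on the median gene of each array, 29 of the 34 members had a lower value on replicate 3 than on replicate 1, with a median difference of -0.23 log2 units, against -0.11 for all genes, of which 61.2% were lower. Centring itself moves all genes by about that much: without it, 27 of 34 members and 49.2% of all genes were lower, with medians of -0.12 and 0.01. After centring, 3757 of the 5187 genes above the mean cutoff were also lower on replicate 3, with a median of -0.14. So were 34 of the 42 other pathway genes, with a median of -0.18. A difference between single arrays has no replicate test.

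**Figure D3:**
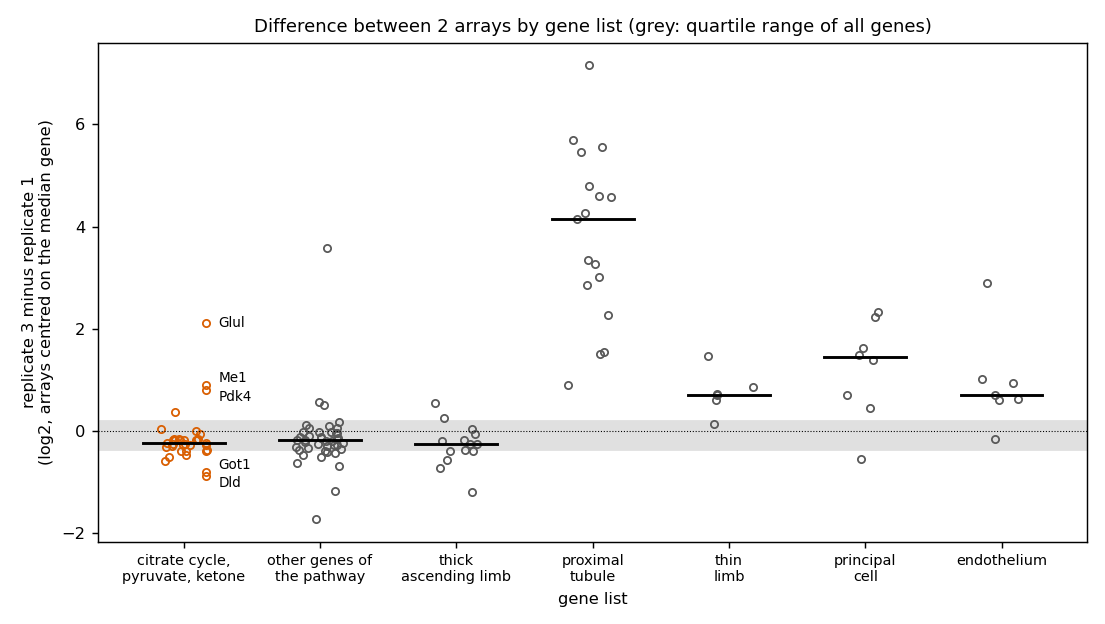
Difference between replicate 3 and replicate 1, in log2 units after centring on each array's median gene, for every measured gene of 7 lists; bars are medians and the grey band runs from the lower to the upper quartile of all genes. The citrate cycle, pyruvate and ketone genes centre on -0.23 with Glul at 2.11, while the 17 proximal tubule markers centre on 4.15.

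Glul, Me1, Pdk4 and Pdk1 were the 4 members with their lowest signal on replicate 1, and they kept that place with no centring, with the median gene, with quantile normalization and with a common 75th percentile. The centred difference of replicate 3 minus replicate 1 was 2.11 for Glul, 0.90 for Me1, 0.81 for Pdk4 and 0.38 for Pdk1. On the same arrays all 17 proximal tubule markers were lowest on replicate 1. Their median signal was 143, 603 and 1911 on replicates 1, 2 and 3, and none was at 0. Summed signals of other cell types were lowest on replicate 1 too, namely 31345, 76809 and 54004 for 6 thin limb markers, 11788, 16547 and 25443 for 8 principal cell markers, and 14914, 24944 and 22658 for 7 endothelial markers. In the rat kidney, glutamine synthetase is known from the proximal tubule. The part of these cells in the values of the 4 members was not tested. The thick ascending limb markers had a median difference of -0.26, close to that of the members as a whole.

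Further probe sets shared these patterns in part. There were 19 further probe sets for 16 of the members, of which 7 were detected when all 20826 probe sets with 1 gene were tested together, where 20.1% were. Of the 19, 10 had their lowest value, after centring, on the same array as the probe set that stood for the gene. The other Glul probe sets had signals of 1018, 2775 and 2747, and of 460, 1549 and 1072, on replicates 1, 2 and 3, so that all 3 were lowest on replicate 1. For Pdk4 the further probe set had 854, 1642 and 1009, again lowest on replicate 1 but with replicate 3 well below replicate 2. For Me1 it had 594, 713 and 651, a ratio of only 1.20 against 2.02 for the brighter one. For Pdk1 the further probe set had 469, 470 and 418 and was lowest on replicate 3, unlike the brighter one. Of the 3 further probe sets of Cs, the brighter pair (5553, 5230 and 3939, and 4513, 4021 and 2787) were lowest on replicate 3 like the main one. The dimmest (305, 177 and 469), which was not detected, was lowest on replicate 2 and highest on replicate 3.

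**Figure D4:**
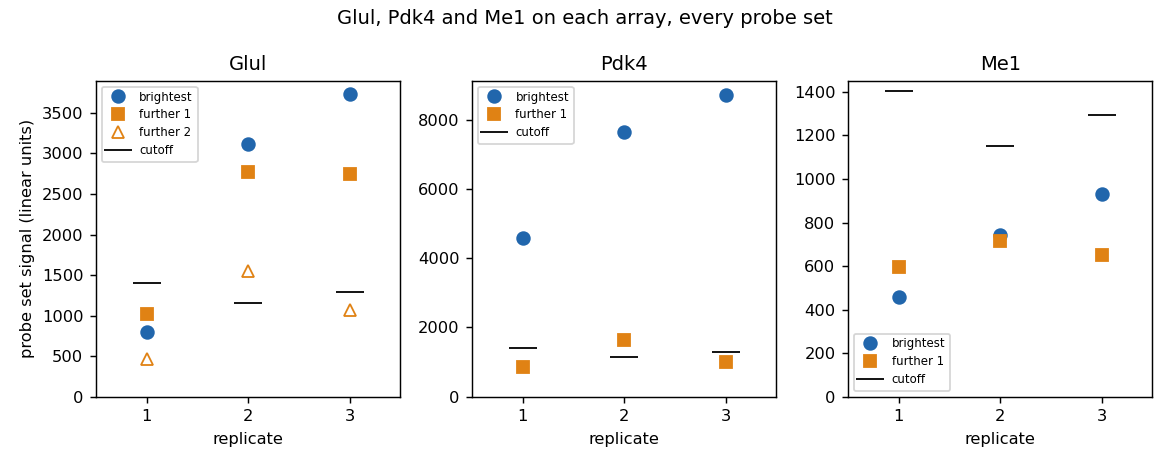
Signals of every probe set of Glul, Pdk4 and Me1 on the 3 arrays, on linear axes that start at 0; dashes mark the array's detection cutoff. All probe sets of the 3 genes have their lowest value on replicate 1, and the spread is largest for Glul.

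For some genes the probe sets gave very different levels. Sucla2 had a further probe set at 15.1 ± 6.71, which is 9.78 log2 units below the brightest, and Idh1 one at 51.3 ± 41.1, which is 7.03 below. Dim probe sets of Cs (317 ± 146) and Got2 (335 ± 80.6) lay 5.98 and 5.94 below. In contrast, the probe sets of Glud1 differed by only 0.05. In 7 genes the probe sets differed in their call, and where the dimmest probe set stood for each gene 21 of 34 members were detected, against 16.8% of all genes. The cause of these differences was not tested.

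**Figure D5:**
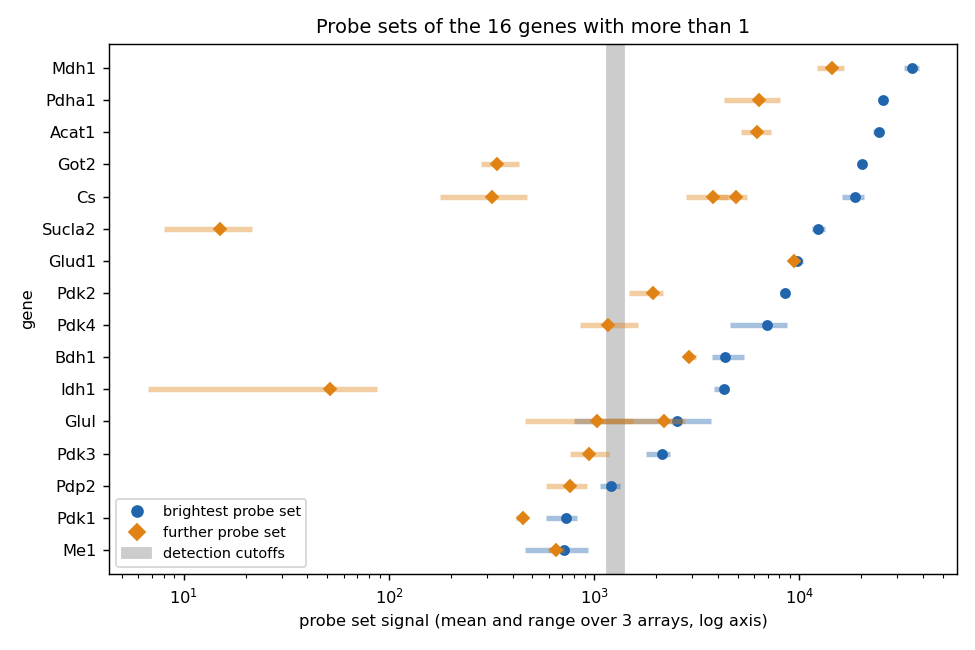
Mean signal (symbols) and range over 3 arrays (bars) of each probe set of the 16 genes that have more than 1, on a log axis; blue circles stand for the gene, orange diamonds are further probe sets, and the grey band spans the detection cutoffs. The pairs of Glud1 and Me1 nearly coincide, while those of Sucla2 and Idh1 lie furthest apart.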

How the data were processed

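Probe set intensities were deposited by the authors on a linear scale, 1 value for each of 31099 probe sets and 3 arrays; per the labels, biotinylated cRNA was prepared by Affymetrix protocols, and, for the summary of probe sets and any normalization, the method is not given in the sources used here. A mean with 2% trimmed at each end was 1000.3 or 1000.4 on each array. The platform annotation gave 20826 probe sets 1 gene, 436 several and 9780 none, and 57 were controls; only those with 1 gene were used. The annotation's gene identifiers and symbols of all 34 members matched RefSeq. Log2 was taken with no pseudocount. Detection was tested with limma 3.58.1 in R 4.3.3 (lmFit, eBayes, one-sided). The procedure was checked on simulated data with independent noise for each gene and a fixed cutoff. In the arrays all genes share the array's cutoff, so that check does not cover errors shared between genes. Apart from its movement between arrays, the test does not cover the error of the cutoff, and the number of arrays limits every value. The members, gene lists and alternatives were chosen with earlier results of these data known. All measured members are named, with the 5 brightest detected and 5 dimmest of the other pathway genes and markers of cell types. Cela1 and Myh1 are named because they lay above the main cutoff and the highest alternative cutoff lies between them. Both were chosen after their values were seen. Motifs other than the receptor element were chosen after seeing the windows. The GC box, cyclic AMP, ETS (CCGGAAG; 15.2% of members' windows, 14.3% of those of measured genes) and forkhead (TGTTTAC; 3.03% and 2.63%) elements were searched on both strands. Protein sequences of isoenzymes were not compared here.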

Additional observations from a re-analysis of the deposited data

How the results depend on the processing

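Under quantile normalization and a pseudocount of 16, all 34 members kept their call and the side of the cutoff they lay on, with 28 detected each time. Scaling to a common 75th percentile moves an array's signals and its cutoff alike, so it could not change a distance or a call. A filter on genes under the median gene could not change a distance either, only the p-values, and 28 members were again detected. Leaving out each array in turn gave 26 to 28 detected members, 26 to 28 further pathway genes and 3021 to 3585 of all genes. The calls of Pdhx, Pdk3 and Glul depended on single arrays, as given above. The position of the cutoff mattered most. With the 90th percentile 7172 of all genes were detected. With the 99th percentile 3 members, 2 further pathway genes and 74 of all genes were. With the mean of all probe sets of a gene 25 members and 2793 of all genes were detected. With the dimmest probe set 2388 of all genes were detected, and with Myh1 left out 29 members and 5709 of all genes.

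Distances that changed sign were the following. With the 90th percentile they were 0.70 for Pdk1, 0.96 for Pdp1, 1.43 for Pdp2, 1.04 for Pc and 0.62 for Me1. With Myh1 left out they were 0.14 for Pdp1, 0.62 for Pdp2 and 0.23 for Pc. With the 99th percentile they were -0.37 for Dld, -2.61 for Pdhx, -0.64 for Pdk2, -2.64 for Pdk3, -0.97 for Pdk4, -1.47 for Aco1, -1.63 for Idh1, -0.67 for Idh3a, -0.47 for Dlst, -0.10 for Sucla2, -0.58 for Got1, -0.45 for Glud1, -2.66 for Glul, -1.63 for Bdh1 and -2.04 for Acly. With the dimmest probe set they were -0.46 for Pdk3, -0.18 for Pdk4, -2.11 for Cs, -5.28 for Idh1, -6.51 for Sucla2, -1.94 for Got2 and -0.47 for Glul, and with the mean of all probe sets -1.77 for Idh1 and -1.63 for Sucla2. A higher cutoff or a dimmer probe set lowers a distance by construction. No paired analysis was possible because all arrays form 1 group.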
